A study of Mus musculus with 6 samples.

Results

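Nuclei with RNA markers of direct pathway striatal projection neurons were described in a mouse brain library with Foxr2 overexpression. There 904 of 10096 barcodes met the rule given next, a count that is not the abundance of the type. They include clusters of 36, 64, 22 and 9 nuclei with markers of other cells, described further on. Nuclei were chosen by their RNA: at least 1000 UMIs (unique RNA molecules counted), no more than 5% of them mitochondrial, and no less than 0.2% of them from the 5 neuronal genes Snap25, Syt1, Rbfox3, Celf4 and Grin2b, with 1 or more UMIs each of Drd1 and Rgs9, at most 1 UMI of Slc17a7 and none of Adora2a or Gpr6. They are called Drd1 nuclei here. The comparison class, 540 Adora2a nuclei of the same library, met the same conditions for depth, neuronal genes, Rgs9 and Slc17a7 and had at least 1 UMI of Adora2a and none of Drd1. The whole series held 22125 barcodes.

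The brains came from C57BL/6J mice in which plasmids had been brought into the ganglionic eminences of the embryo by in utero electroporation. A piggyBac plasmid drove FOXR2 with a V5 tag and GFP from the ubiquitous CAG promoter, and a second carried Akaluc luciferase and GFP, so that expression is not limited to 1 cell type, and tissue dissected for a library can hold cells with and without plasmid. Foxr2 alone received Foxr2 overexpression, and the study describes its lesions as ones that do not proliferate. Foxr2 p53LOF (10379 barcodes) also lost p53 through CRISPR. All animals of both groups therefore received the Foxr2 and reporter plasmids, and there was no library without them. Nuclei were read with the 10x Multiome assay, which measures RNA and open chromatin (ATAC-seq) in the same nucleus. Counts came from 1 library per genotype, so no difference has a replicate check and no p-value is given. The counts of Foxr2 alone replicate 2 (1650 barcodes) were not analysed here.

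Striatal projection neurons are the GABAergic output neurons of the striatum. Those of the direct pathway project to the output nuclei of the basal ganglia, carry the dopamine D1 receptor (Drd1), which stimulates adenylyl cyclase through the G protein alpha subunit Gnal, and release substance P (from Tac1) and dynorphin (from Pdyn). Those of the indirect pathway carry the D2 receptor (Drd2) and the adenosine A2a receptor (Adora2a) and release enkephalin (from Penk). The direct pathway favours movement and the indirect pathway restrains it. Both arise in the lateral ganglionic eminence, where Isl1 and Ebf1 belong to the program of the direct type and Sp9 and Six3 to that of the indirect type. Both share Bcl11b, Ppp1r1b (DARPP-32) and Rgs9, a regulator that shortens G protein signaling.

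The rule did not use chromatin, and peaks around Drd1 were among those with the largest ratios between the classes. The sequences that follow are the central 300 bases of peaks with large differences in ATAC fragments: 3 of the peaks downstream of Drd1 and the peaks with the largest ratio in Lingo2 and next to Sntg2, which were more open in Drd1 nuclei, and for contrast a peak in an intron of Drd2 and a peak beyond the end of Penk, which were more open in Adora2a nuclei. All are the plus strand of mm10, read from the GRCm38 reference. Capitals mark a match of TGACAG (a core letter pattern of MEIS factors) or TGANTCA (of AP-1 factors), on either strand.
Drd1, 11683 bases after its start, intergenic, chr13:54043872-54044171: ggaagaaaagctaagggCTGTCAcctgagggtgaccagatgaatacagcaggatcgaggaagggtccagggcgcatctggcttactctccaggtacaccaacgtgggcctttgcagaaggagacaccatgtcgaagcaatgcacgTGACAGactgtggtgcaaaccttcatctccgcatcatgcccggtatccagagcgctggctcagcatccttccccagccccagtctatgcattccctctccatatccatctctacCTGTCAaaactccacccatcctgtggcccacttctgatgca
Drd1, 109777 bases after its start, intergenic, chr13:53945778-53946077: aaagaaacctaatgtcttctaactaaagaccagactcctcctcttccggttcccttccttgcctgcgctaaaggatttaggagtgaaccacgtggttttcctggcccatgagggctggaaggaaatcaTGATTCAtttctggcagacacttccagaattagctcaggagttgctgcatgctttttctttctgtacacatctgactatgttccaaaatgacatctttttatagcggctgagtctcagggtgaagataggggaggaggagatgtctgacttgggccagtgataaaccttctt
Drd1, 200147 bases after its start, intergenic, chr13:53855409-53855708: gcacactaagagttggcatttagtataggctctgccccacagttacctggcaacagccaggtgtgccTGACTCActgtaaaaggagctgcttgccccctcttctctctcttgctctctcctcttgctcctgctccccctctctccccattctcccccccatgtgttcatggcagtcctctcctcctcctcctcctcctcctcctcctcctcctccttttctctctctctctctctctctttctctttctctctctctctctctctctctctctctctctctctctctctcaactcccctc
Lingo2, intron, chr4:36269561-36269860: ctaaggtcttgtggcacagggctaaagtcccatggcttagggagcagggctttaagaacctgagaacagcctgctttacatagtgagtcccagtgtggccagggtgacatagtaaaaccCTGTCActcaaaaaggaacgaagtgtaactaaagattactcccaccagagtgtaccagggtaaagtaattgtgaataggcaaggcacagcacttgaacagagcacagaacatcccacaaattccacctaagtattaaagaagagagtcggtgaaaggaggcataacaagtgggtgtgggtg
Sntg2, at position -1845 bases from its start, intergenic, chr12:30375070-30375369: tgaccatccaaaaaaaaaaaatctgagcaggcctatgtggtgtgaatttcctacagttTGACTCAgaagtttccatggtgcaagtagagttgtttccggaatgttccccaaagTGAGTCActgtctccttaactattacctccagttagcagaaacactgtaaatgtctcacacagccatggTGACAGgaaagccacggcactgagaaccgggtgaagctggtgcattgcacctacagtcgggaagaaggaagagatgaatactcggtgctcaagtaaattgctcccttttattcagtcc
Drd2, intron, chr9:49379851-49380150: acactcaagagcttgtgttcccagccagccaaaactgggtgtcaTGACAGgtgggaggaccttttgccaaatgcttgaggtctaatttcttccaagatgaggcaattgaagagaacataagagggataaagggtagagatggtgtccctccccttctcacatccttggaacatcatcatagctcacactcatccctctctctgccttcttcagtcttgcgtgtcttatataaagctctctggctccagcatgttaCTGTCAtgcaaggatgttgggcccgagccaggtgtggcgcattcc
Penk, 6129 bases after its start and beyond its end, intergenic, chr4:4132541-4132840: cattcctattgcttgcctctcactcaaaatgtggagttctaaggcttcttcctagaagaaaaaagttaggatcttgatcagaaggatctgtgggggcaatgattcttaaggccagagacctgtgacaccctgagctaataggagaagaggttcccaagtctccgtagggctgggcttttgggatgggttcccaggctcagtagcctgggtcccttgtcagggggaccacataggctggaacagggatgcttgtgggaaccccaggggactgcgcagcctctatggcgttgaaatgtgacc

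The values that chose the nuclei are given as a description. A Drd1 UMI was counted once in 401 nuclei, 2 times in 291, 3 times in 110 and 4 or more times in 102, with 11 at most. Their 1785 Drd1 UMIs came to 237 CPM (a gene's UMIs for every 1000000 counted in the class), against 12.1 CPM in 944 nuclei with at least 3 Slc17a7 UMIs, the vesicular glutamate transporter of cortical projection neurons. Of the nuclei that met the shared conditions, 991 had a Drd1 UMI, 87 of which were left out for an Adora2a or Gpr6 UMI, and 911 had neither a Drd1 nor an Adora2a UMI. Just outside the rule lay 263 nuclei with no Rgs9 UMI, 140 with 2 or more Slc17a7 UMIs and 5 with too low a neuronal share. Just inside lay 256 with 1 Rgs9 UMI and 89 with 1 Slc17a7 UMI. The lowest neuronal share among the Drd1 nuclei was 0.225% and the median 0.505%. With 1 UMI as the criterion, a nucleus with no Drd1 UMI may still have held Drd1 RNA.

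Depth was alike in both classes. Drd1 nuclei had a median of 7522 UMIs, 3245 genes and 15340 ATAC counts in peaks, and Adora2a nuclei 7175 UMIs, 3114 genes and 15228 ATAC counts. Summed over nuclei, RNA ratios rest on 7518489 and 4324633 UMIs and ATAC ratios on 7032374 and 4212751 fragments in peaks. The Scrublet method marked 112 of the Drd1 nuclei (12.4%) and 53 of the Adora2a nuclei (9.81%) as possible doublets, 2 nuclei in 1 droplet. These were kept, and the values without them are among the alternatives. Marker levels of other cells were summed over their lists. The 5 oligodendrocyte genes summed to 406 CPM in Drd1 nuclei and 380 CPM in Adora2a nuclei, against 13401 CPM in 1266 oligodendrocyte nuclei of the library, the 4 astrocyte genes to 73.3 and 111 CPM, the 4 microglia genes to 83.9 and 82.3 CPM and the 7 genes of cortical glutamatergic neurons to 44.4 and 26.6 CPM. The interneuron list differed, with 564 CPM against 123 CPM and 4714 CPM in 61 nuclei with Lhx6 UMIs, which mark interneurons, and is described with the clusters. No gene of these lists was at 0 in the Drd1 nuclei. Of the 904 Drd1 barcodes, 13 were also barcodes of the Foxr2 p53LOF library and 2 of Foxr2 alone replicate 2. Of all 10096 barcodes of the library, these numbers were 140 and 19.

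The label of the nuclei was checked against genes outside the rule, and these were present. Bcl11b, a transcription factor of striatal projection neurons, reached 299 CPM (95% interval of the count, 287 to 312), and Ppp1r1b 321 CPM (308 to 334). Tac1 was found in 828 of the 904 nuclei. In the Foxr2 p53LOF library the same conditions were met by 31 barcodes, with a median of 11726 UMIs, and by 2 barcodes for the Adora2a class. These 31 barcodes lacked or were low in several defining genes and held others. Their level of Ppp1r1b, Isl1 and Pdyn was 0 UMIs, which allows up to 8.07 CPM each at the upper end of the interval, Tac1 was at 13.1 CPM (4.82 to 28.6) and Bcl11b at 4.37 CPM (0.530 to 15.8). In the Drd1 nuclei of Foxr2 alone, Tac1 was at 669 CPM and Bcl11b at 299 CPM. Other genes of the direct pathway list were higher in the 31 barcodes, Ebf1 at 245 CPM (202 to 295) against 115 CPM in the Drd1 nuclei, Zfp521 at 149 CPM (115 to 189) against 67.6 CPM and Sfxn1 at 101 CPM (73.7 to 134) against 64.6 CPM. Over all barcodes of that library Zfp521 was at 170 CPM and Sfxn1 at 111 CPM, no lower than in the 31, while Ebf1 was at 56.1 CPM. The GABAergic genes Gad2 (267 and 304 CPM) and Slc32a1 (65.6 and 69.7 CPM) were at similar levels. With 1 library each, genotype and library cannot be told apart, and all further results are from Foxr2 alone.

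Most genes were expressed alike in Drd1 and Adora2a nuclei. Of 9783 genes tested, those with at least 10 CPM and 10 UMIs in the higher class, 120 (1.23%) were at least 2-fold higher in Drd1 nuclei and 48 (0.491%) in Adora2a nuclei, and the remaining 9615 lay within 2-fold. The 120 include Drd1, and the 48 include Adora2a and Gpr6, whose RNA the rule set to 0 in the other class. The median log2 ratio of Drd1 over Adora2a nuclei was 0.02. Intervals on ratios are exact 95% intervals for 2 counts and, like all intervals here, cover counting error only.

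Genes of direct pathway identity were higher in Drd1 nuclei as a group. Of 11 listed genes 10 were tested, 8 were at least 2-fold higher in Drd1 nuclei and none in Adora2a nuclei, with a median log2 ratio of 2.46. Since Drd1 RNA chose the nuclei and this list holds genes known to go with it, the direction describes the class. Among the neuropeptides, Tac1 reached 669 CPM in Drd1 nuclei and 87.4 CPM in Adora2a nuclei (log2 ratio 2.94, interval 2.78 to 3.09), and Pdyn 30.1 and 6.01 CPM (2.32, 1.73 to 2.97). Both peptide precursors of the direct pathway thus marked the Drd1 nuclei, though Pdyn UMIs were found in 165 of them. The transcription factor Ebf1 was at 115 CPM in 404 Drd1 nuclei and at 8.79 CPM in 10 Adora2a nuclei (3.72, 3.25 to 4.22). Isl1, a LIM-homeodomain factor, was at 30.9 and 4.39 CPM (2.81, 2.14 to 3.57), and the zinc finger factor Zfp521 at 67.6 and 11.1 CPM (2.61, 2.18 to 3.06). Each of these 3 factors had an interval that lay wholly above 2-fold. Slc35d3, a membrane protein linked to D1 receptor trafficking, was at 19.6 and 2.08 CPM (3.23, 2.27 to 4.39), the ion channel subunit Asic4 at 31.9 and 7.40 CPM (2.11, 1.57 to 2.69), and Eya1 at 17.4 and 4.86 CPM (1.84, 1.17 to 2.58). Reln, a secreted glycoprotein, at 241 and 133 CPM (0.86) and Sfxn1, the gene upstream of Drd1, at 64.6 and 47.4 CPM (0.45, 0.21 to 0.69) stayed within 2-fold. Chrm4, the muscarinic M4 receptor that opposes D1 signaling, had 25 UMIs in Drd1 nuclei and 2 in Adora2a nuclei (2.85, 0.84 to 5.97) and was below the minimum of 10 CPM.

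Genes of indirect pathway identity were lower in Drd1 nuclei. Of 10 genes 9 were tested, 8 were at least 2-fold lower and none was higher, with a median log2 ratio of -3.65. Drd2 was at 14.4 CPM in Drd1 nuclei and 548 CPM in Adora2a nuclei (-5.25, -5.55 to -4.98), and its 108 UMIs in Drd1 nuclei were found in 36 of them. Drd2 thus had the lowest ratio of this list. The kainate receptor subunit Grik3 was at 15 and 189 CPM (-3.65), the orphan receptor Gpr52 at 1.60 and 33.8 CPM (-4.40) and Upb1, an enzyme of pyrimidine breakdown, at 2.00 and 32.8 CPM (-4.04). Sp9 was at 7.98 and 39.5 CPM (-2.31, -2.76 to -1.88), while Six3 at 44.8 and 63.6 CPM (-0.50, -0.74 to -0.27) stayed within 2-fold.

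Penk RNA was found in many Drd1 nuclei at a low level. It was at 209 CPM (198 to 219) in Drd1 nuclei and 2720 CPM in Adora2a nuclei (-3.70, -3.78 to -3.63), and 438 of the 904 Drd1 nuclei (48.5%) held a Penk UMI. Oligodendrocyte nuclei, which should lack Penk, had 98.8 CPM at a median of 1377.5 UMIs, and Slc17a7 nuclei 51.6 CPM at a median of 10793 UMIs. After each nucleus was thinned to 1000 UMIs, a Penk UMI remained in 16.0% of the Drd1 nuclei, 82.6% of the Adora2a nuclei, 7.90% of the oligodendrocyte nuclei and 4.45% of the Slc17a7 nuclei. The share of Drd1 nuclei with Penk was thus above both background classes. These classes were chosen by different conditions, however. Slc17a7 nuclei had to lack Rgs9 UMIs, and oligodendrocyte nuclei had to lie below the neuronal share of the rule. Drd1 nuclei had to hold Rgs9, so a lower background of striatal RNA was set in part by the choice of nuclei. The part of free or mixed RNA in the Penk share of Drd1 nuclei was not tested. For Tac1 the thinned shares in the same order were 43.5%, 4.44%, 4.11% and 1.48%, so the share of Adora2a nuclei with Tac1 was near that of the oligodendrocyte nuclei.

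**Figure D1:**
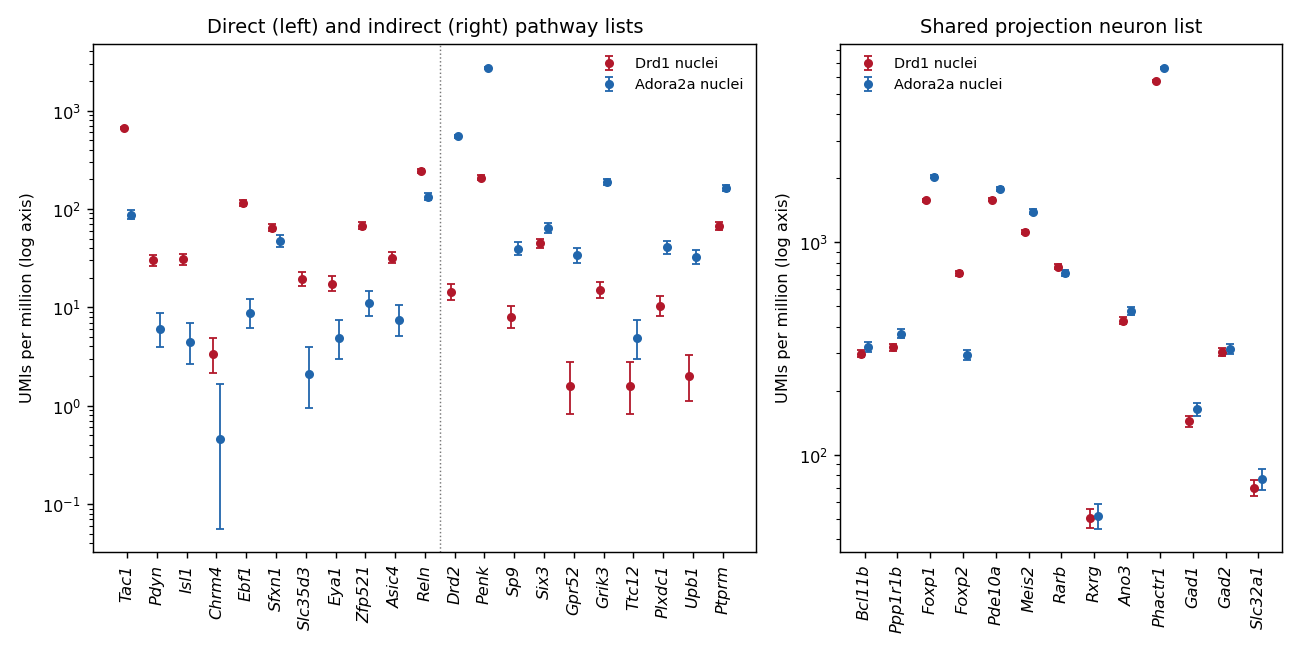
RNA levels of listed genes in 904 Drd1 nuclei and 540 Adora2a nuclei of the Foxr2 alone library, in CPM on log axes, with bars for exact 95% counting intervals (direct and indirect pathway lists on the left, shared list on the right). Tac1, Pdyn, Isl1 and Ebf1 lie higher in Drd1 nuclei and Drd2, Penk and Grik3 higher in Adora2a nuclei, while Bcl11b and Ppp1r1b lie close together.

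Genes that both types share were close between the classes. Of 14 shared identity genes, all tested, 12 lay within 2-fold, 1 was at least 2-fold higher in Drd1 nuclei and 1 in Adora2a nuclei, with a median log2 ratio of -0.16. Bcl11b was at 299 and 323 CPM (-0.11), Pde10a, a striatal phosphodiesterase, at 1585 and 1777 CPM (-0.17), and Meis2 at 1117 and 1393 CPM (-0.32). The enzymes of GABA synthesis Gad1 (-0.18) and Gad2 (-0.05) and the vesicular GABA transporter Slc32a1 (-0.14) were likewise within 2-fold. The forkhead factor Foxp2 was higher, at 714 CPM in Drd1 nuclei and 295 CPM in Adora2a nuclei (1.28, 1.19 to 1.37).

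Dopamine receptor signaling did not separate the classes at 2-fold. All 24 listed genes were tested and all lay within 2-fold, with a median log2 ratio of -0.10. They include Rgs9 (345 and 349 CPM), which the rule required in both classes, so its ratio was set in part by the choice of nuclei. Gnal was at 456 and 478 CPM, its partner Gng7 at 131 and 166 CPM, and the adenylyl cyclase Adcy5 at 407 and 436 CPM. The widest ratio of the list was that of the phosphodiesterase Pde4b, at 471 and 639 CPM (-0.44, -0.51 to -0.37). Of these genes, 11 had an interval below 0 and 1 above 0, so small differences were measurable at this depth. Over all 9783 genes tested, 956 had an interval below 0 and 1292 above 0.

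Among 17 tested receptors of transmitters and neuropeptides, 2 were at least 2-fold higher in Drd1 nuclei and 2, Drd2 and the delta opioid receptor Oprd1 (1.73 and 27.3 CPM), were lower. The D3 receptor Drd3, which marks the ventral striatum, was at 43.0 and 11.3 CPM (1.92, 1.49 to 2.39). Tacr1, the receptor for substance P, was at 18.2 and 6.24 CPM (1.55, 0.94 to 2.20), with 112 of its 137 UMIs in 1 cluster described further on. The mu opioid receptor Oprm1 (37.2 and 37.9 CPM), the muscarinic M1 receptor Chrm1 (41.4 and 40.9 CPM), the cannabinoid receptor Cnr1 (261 and 219 CPM) and Grm5 (2365 and 2415 CPM) were within 2-fold, as was Htr2c (227 and 326 CPM, -0.52). Immediate early genes, which follow recent activity, were sparse: 6 of 19 were tested, and Jun was lower in Drd1 nuclei (7.71 and 16.0 CPM, -1.05, -1.58 to -0.52).

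The lists of minor types and positions had up to 3 genes past 2-fold each, against 1.23% and 0.491% of all genes. Of 7 tested striosome genes, Sema5b (30.3 and 14.3 CPM) and Kcnip1 (26.3 and 9.25 CPM) were higher in Drd1 nuclei and none was lower, and none of the 5 matrix genes was 2-fold apart. Both striosome genes were concentrated in minor clusters described further on. Sema5b was at 176 CPM in a cluster of 76 nuclei and at 17.8 CPM in the rest of the Drd1 nuclei, which is less than 2-fold above the Adora2a nuclei, and 123 of the 198 Kcnip1 UMIs lay in a cluster of 36 nuclei. Both tested genes of eccentric projection neurons were higher, Otof (16.6 and 2.08 CPM) and Col11a1 (14.9 and 2.77 CPM). Of 5 tested genes of position in the striatum only Drd3 was 2-fold apart, and of 7 tested patterning factors Isl1 and Ebf1 were higher and Sp9 was lower. Among lists of other cells, all 3 tested interneuron genes were higher in Drd1 nuclei (Sst, Npy and Adarb2), and Gfap was lower among 2 tested astrocyte genes. Npy (log2 ratio 3.08) went to 0.76 and Gfap (-2.27) to -0.76, both within 2-fold, when clusters rich in possible doublets were left out. Of the 1554 Sst UMIs 1244 lay in the cluster of 36 nuclei, and of the 1936 Adarb2 UMIs 890 in that of 76. None of the 5 oligodendrocyte genes, 3 microglia genes, 1 oligodendrocyte precursor gene and 1 cortical gene tested was 2-fold apart. No endothelial or proliferation gene reached the minimum.

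The genes named by the size of their ratio were led by Cntnap3, a cell adhesion molecule of the neurexin superfamily, at 170 CPM in 524 Drd1 nuclei and 9.02 CPM in 24 Adora2a nuclei (4.24, 3.78 to 4.74). Sntg2, a syntrophin, was at 55.1 and 4.16 CPM (3.73, 3.05 to 4.49). Lingo2, a leucine-rich repeat membrane protein, was at 1154 CPM in 777 Drd1 nuclei and at 106 CPM in 57 Adora2a nuclei (3.44, 3.31 to 3.58). In other nuclei of the library Lingo2 was at 1726 CPM (Slc17a7 nuclei), Cntnap3 at 192 CPM (Lhx6 nuclei) and Sntg2 at 24.9 CPM (Slc17a7 nuclei) and 32.3 CPM (Lhx6 nuclei). Impg1 (31.9 and 5.09 CPM, 2.65) and the noncoding RNA Sox1ot (52.0 and 8.79 CPM, 2.57) were also higher in Drd1 nuclei. The neuropeptide gene Npy (83.8 and 9.94 CPM, 3.08) and Zfp804b (27.4 and 4.39 CPM, 2.64) rested on few nuclei, 92 and 31, and are taken up with the clusters. On the Adora2a side lay, besides genes already given, Nt5e (25 and 122 CPM, -2.29), which makes adenosine outside the cell, Nell1 (45.5 and 173 CPM, -1.93), Gucd1 (18.0 and 68.2 CPM, -1.93) and the astrocyte gene Gfap (4.52 and 21.7 CPM, -2.27), in 32 nuclei of each class.

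Open chromatin, which the rule did not use, differed at a small share of peaks. Fragments were estimated from the peak counts and are given as FPM, fragments per 1000000 fragments in peaks of the class. Of 73054 peaks with at least 20 fragments in the higher class, 3517 (4.81%) were at least 2-fold higher in Drd1 nuclei and 1039 (1.42%) in Adora2a nuclei. These calls rest on the ratio alone. On chromosomes the whole interval lay past 2-fold for 158 and 143 of these peaks, and the intervals of the others include smaller ratios. Many of the 158 lay around the Drd1 gene, a locus described further on. With at least 40 fragments the shares were 2.07% and 0.72%. The minimum of 20 fragments is a lower bar in the deeper Drd1 class, and with the same minimum of 5 FPM in the higher class, a rule set after the data were seen, the counts were 1116 (2.01%) and 914 (1.64%).

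Peaks were summed over the start interval of each gene with 2000 bases added on each side. The interval, given with each gene in the deposited features, can span several starts. For some genes it therefore takes in peaks in the gene body, such as 57 peaks for Foxp1, 48 for Pde10a and 10 for Rgs9. Over all genes with at least 20 fragments there, 1.62% were at least 2-fold more open in Drd1 nuclei and 0.316% in Adora2a nuclei. Of 11 direct pathway genes, 7 were at least 2-fold more open in Drd1 nuclei (median log2 ratio 1.17), and of 10 indirect pathway genes, 8 were in Adora2a nuclei (median -1.32). None of the 14 shared genes and none of the 24 dopamine signaling genes was 2-fold apart. Drd1 itself had 30.6 FPM in Drd1 nuclei and 5.22 FPM in Adora2a nuclei (215 and 22 fragments, log2 ratio 2.55, 1.91 to 3.25), against 10.6 FPM in Slc17a7 nuclei and 0.615 FPM in oligodendrocyte nuclei. Rgs9, which both classes were required to express, had 151 and 156 FPM (-0.05, -0.19 to 0.09).

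Start sites of direct pathway genes were led by Ebf1, with 22.3 and 2.85 FPM (2.97, 2.12 to 3.95), Isl1, with 23.9 and 4.27 FPM (2.48, 1.78 to 3.27), and Pdyn, with 18.8 and 3.56 FPM (2.40, 1.62 to 3.28). Tac1 had 22.2 and 4.51 FPM (2.30, 1.61 to 3.07) and Chrm4, whose RNA was too sparse to test, 22.9 and 10.2 FPM (1.17, 0.67 to 1.69). RNA and start site did not always have ratios of similar size. Zfp521 had a log2 ratio of 2.61 in RNA and of 0.38 (0.05 to 0.71) at its start, though 8 of 12 tested peaks within 10 kb of the gene were at least 2-fold higher in Drd1 nuclei (summed log2 ratio 1.07, 0.83 to 1.31), and Reln RNA was higher in Drd1 nuclei while its start had 18.6 and 19.9 FPM. On the other side, Drd2 had 2.42 and 28.7 FPM (-3.57, -4.40 to -2.83), Grik3 8.96 and 39.9 FPM (-2.15), Adora2a 3.56 and 15.4 FPM (-2.12) and Penk 23.0 and 58.6 FPM (-1.35, -1.64 to -1.06). Each of these 4 starts was at least 2-fold more open in Adora2a nuclei.

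**Figure D2:**
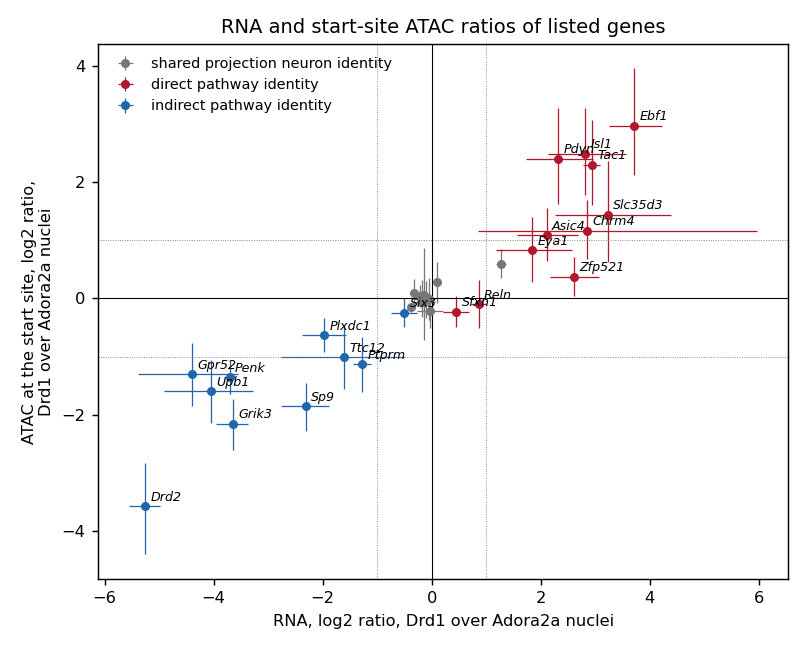
Log2 ratio of Drd1 over Adora2a nuclei for RNA (x axis) and for ATAC fragments in peaks over the start interval (y axis), 1 point per gene shown. The start interval, with 2000 bases added on each side, spans several starts in some genes. Bars are exact 95% counting intervals. Direct pathway genes lie to the upper right and indirect pathway genes to the lower left, while Reln and Sfxn1 lie near 0 in ATAC.

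The Drd1 locus on chromosome 13 held a long stretch of peaks that were more open in Drd1 than in Adora2a nuclei. Of 46 tested peaks from the Drd1 start to 300 kb after it, in the direction of transcription, 45 (97.8%) were at least 2-fold higher in Drd1 nuclei, against 4.81% of all peaks. Summed over these 46 peaks there were 4152 fragments in Drd1 nuclei and 544 in Adora2a nuclei (log2 ratio 2.19, 2.06 to 2.32). The exception, 205340 bases after the start, had 29.2 and 18.5 FPM (0.65). No other protein-coding gene starts in this stretch, and its bounds were chosen after the values were seen.

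The stretches next to it had summed ratios near 1. Between 300 and 700 kb after the start, 13 peaks were tested and none was 2-fold apart, with 796 and 455 fragments (0.07, -0.10 to 0.24). In the 50 kb before the start, which hold the start of Sfxn1, 5 peaks were tested and none was 2-fold apart, with 802 and 456 fragments (0.08, -0.09 to 0.24). The difference was found again farther upstream, where from 200 to 50 kb before the start 9 of 19 tested peaks (47.4%) were higher in Drd1 nuclei, with 867 and 300 fragments (0.79, 0.60 to 0.99). None of the 76 tested peaks from 200 kb before to 400 kb after the start was 2-fold higher in Adora2a nuclei.

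Of the 8 peaks named for the largest ratios in favour of Drd1 nuclei among all peaks with at least 50 fragments, 5 lay in this stretch. The peak 11683 bases after the start, shown first above, had 81 fragments in Drd1 nuclei and 2 in Adora2a nuclei (4.60, 2.70 to 7.67), and the window holds 3 TGACAG matches. The peak at 109777 bases had 143 and 4 fragments (4.42, 3.03 to 6.32), and that at 200147 bases 103 and 3 fragments (4.36, 2.77 to 6.66). The other 2 lay 120985 and 127670 bases after the start, in an exon and an intron of the noncoding gene Gm34557. Some of these elements were open in cortical nuclei as well. At 109777 bases Slc17a7 nuclei had 18.0 FPM, close to the 20.3 FPM of the Drd1 nuclei, and at 99307 bases they had 18.1 FPM against 5.69 FPM in Drd1 nuclei and 0.237 FPM in Adora2a nuclei. The element at 200147 bases had 1.44 FPM in Slc17a7 nuclei and 14.6 FPM in Drd1 nuclei. Oligodendrocyte nuclei had at most 1.64 FPM at any tested peak of the stretch.

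**Figure D3:**
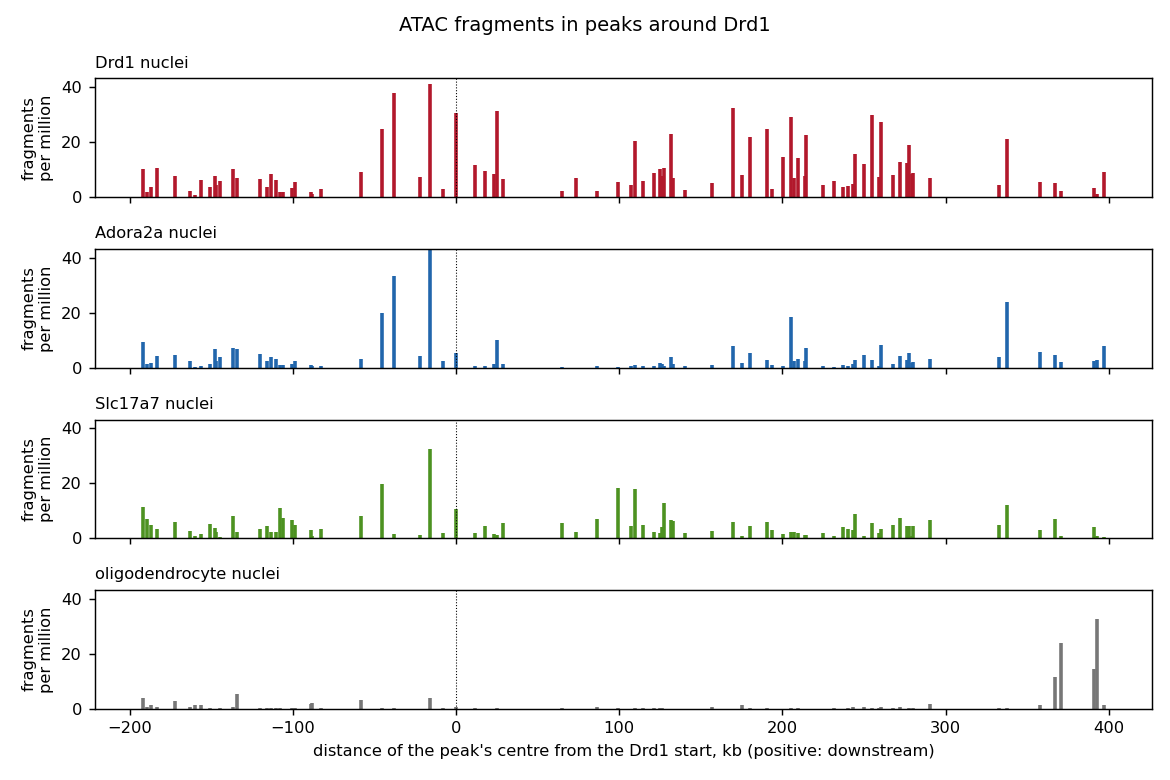
Peaks around Drd1 by distance from the Drd1 start in kb (positive values lie in the direction of transcription), with FPM on the y axis, 1 bar per peak and 1 panel each for Drd1, Adora2a, Slc17a7 and oligodendrocyte nuclei. From 0 to 300 kb bars are higher in Drd1 nuclei than in Adora2a nuclei, with the smallest ratio at a peak with 29.2 and 18.5 FPM, and just before the start both classes have high bars.

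Several other genes with large RNA ratios had the difference at most of their peaks, and others did not. Within 10 kb of the gene, 11 of 12 tested peaks of Lingo2, 16 of 17 of Sntg2, 13 of 18 of Ebf1, 8 of 12 of Zfp521, 9 of 11 of Sox1ot, 4 of 4 of Isl1 and 3 of 3 of Tac1 were at least 2-fold higher in Drd1 nuclei. The Lingo2 intron peak had 56 fragments and 1 fragment (5.07, 2.53 to 10.40), the Sntg2 peak 50 and 2 fragments (3.90, 1.98 to 6.99), and an Isl1 exon peak, 4551 bases after the start, 93 and 4 fragments (3.80, 2.40 to 5.71). In Adora2a nuclei the same held for 8 of 8 peaks of Drd2, 16 of 16 of Grik3, 6 of 6 of Oprd1 and 20 of 23 of Ptprm, a receptor phosphatase. The Drd2 intron peak had 12 and 77 fragments (-3.42, -4.43 to -2.53) and the peak beyond Penk 19 and 95 (-3.06, -3.86 to -2.34). Over all tested peaks, 4.81% were 2-fold higher in Drd1 nuclei and 1.42% in Adora2a nuclei. Among shared genes, 0 of 25 peaks of Bcl11b, 0 of 9 of Ppp1r1b and 0 of 58 of Foxp1 were 2-fold higher in Drd1 nuclei. Rarb had 4 of 32 and Pde10a 2 of 48 higher in Drd1 nuclei, and Meis2 had 1 of 31 higher in Adora2a nuclei. Foxp2, the shared gene with higher RNA in Drd1 nuclei, had 6 of 18 higher in these nuclei. Cntnap3, with the largest RNA ratio, had 1 of 2, Impg1 1 of 7 and Zfp804b 0 of 2. On the Adora2a side Plxdc1 had 2 of 9, Upb1 2 of 4 and Gfap 0 of 4.

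Over the genome, peaks and RNA went together for a small share of genes. The 3517 peaks higher in Drd1 nuclei had 1488 different nearest genes with tested RNA, of which 62 (4.17%) were at least 2-fold higher in Drd1 nuclei and 1 (0.0672%) was lower, against 1.23% and 0.491% of all genes. For the 1039 peaks higher in Adora2a nuclei, 22 of 481 nearest genes (4.57%) had 2-fold lower RNA in Drd1 nuclei and 6 (1.25%) higher. Drd1 is among the 62 and Adora2a among the 22, and the rule set the direction of their RNA.

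Letter patterns of transcription factor motifs were counted in the central 300 bases of the tested peaks on chromosomes, 73029 in all, on either strand. The 14 patterns were CCCNNGGG (EBF), TGACAG (MEIS), TGANTCA (AP-1), TGACGTCA (CRE), GGGCGG (SP/KLF), TGTTTAC (FOXP), TAATTA (DLX), CTAATG (ISL), ACAATG (SOX), GTTGCC (RFX), TTGGCA (NFI), ATGCAAAT (POU), CAGCTG (E-box) and CAGATG (NEUROD). None holds another in full, though matches can share letters. TGACAG was in 26.6% of the windows higher in Drd1 nuclei, 35.5% of those higher in Adora2a nuclei and 26.1% of all windows. Over 2000 bases from a start the shares were 27.2%, 36.7% and 28.9%, so that there the Drd1 windows lay below all windows. TAATTA was in 9.01%, 16.0% and 7.28%, respectively, and away from starts in 9.50%, 16.6% and 8.80%. TGANTCA had the opposite order, with 22.2%, 17.8% and 18.0%, and away from starts 23.4%, 18.4% and 21.3%. ACAATG was in 18.7%, 14.9% and 13.3%, and away from starts in 19.5%, 15.7% and 15.1%. CCCNNGGG was in 8.87%, 6.55% and 10.5%, and over 2000 bases from a start in 8.06%, 5.45% and 8.12%. GGGCGG, common at start sites, was in 12% and 9.73% of the windows of either side and 21.7% of all, and away from starts in 9.27%, 8.44% and 11.1%. CAGCTG was in 23.3% of the Drd1 windows and 18.2% of the Adora2a windows, and among the 158 and 143 windows whose whole interval lay past 2-fold in 18.4% and 28.7%, the opposite order. In those windows CCCNNGGG (7.59% and 12.6%) and GGGCGG (13.3% and 16.8%) also had the opposite order, and ACAATG was in 13.9% and 14%. Many of the 158 windows came from the Drd1 locus, and the shares without that locus were not computed. A match describes letters and not a bound site. Median GC content was 48.0% and 45.7% in the windows of either side and 50% in all.

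Drd1 nuclei varied among themselves. Clustering of the 904 nuclei, with all listed genes kept out, gave 11 clusters, which are named here by their leading genes and described without a test. The largest clusters, of 177 nuclei led by Gm19410, Efcab1 and Clmp and of 174 led by Wnt8b, Synpo2 and Pparg, differed in genes known for their gradients across the striatum. Crym, a thyroid hormone binding protein, was at 141 CPM (121 to 163) in the first and 26.4 CPM (18.7 to 36.2) in the second, and Cnr1 at 125 CPM (106 to 146) and 551 CPM (514 to 591). A cluster of 122 nuclei led by Adam12, Gabrg1 and Greb1l had Drd3 at 92.7 CPM (75.1 to 113), Oprk1, the receptor for dynorphin, at 185 CPM and Pdyn at 58.9 CPM (45.1 to 75.7). Drd3 in the cluster led by Wnt8b was at 6.94 CPM (3.33 to 12.8). Tac1 was at 469, 568 and 552 CPM in these 3 clusters, so the substance P gene varied less among them than Crym, Cnr1 or Drd3.

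A cluster of 93 nuclei led by Zp3r, Cd55 and Ceacam10 was higher in genes of striosomes, the patches of the striatum that are rich in mu opioid receptor, than the larger clusters. The striosome list summed to 655 CPM there and to between 286 and 358 CPM in the clusters of 177, 174 and 122 nuclei, while the clusters of 76 and 38 nuclei described further on had more, 1057 and 777 CPM. Oprm1 was at 81.5 CPM (61.6 to 106) there, against 15 CPM in the cluster led by Gm19410. Tac1 was at 1388 CPM, the highest level of the 11 clusters, Lypd1 at 40.7 CPM (27.1 to 58.9) and Kremen1 at 20.4 CPM (11.1 to 34.2). Epha4, a receptor of the matrix around the patches, was at 156 CPM (128 to 188), against 330 CPM (299 to 364) in the cluster led by Gm19410. Ebf1 was at 32.0 CPM, against 219 CPM.

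In a separate split, 167 Drd1 nuclei with an Oprm1 UMI (median 7934 UMIs) were set beside 737 without (7422 UMIs). The remaining striosome genes, summed, were higher with an Oprm1 UMI (log2 ratio 0.36, 0.24 to 0.48) and the matrix genes lower (-0.39, -0.50 to -0.27). Lypd1 (21.3 and 7.37 CPM, 1.53, 0.83 to 2.21), Bach2 (67.7 and 34.5 CPM, 0.97) and Sema5b (49.0 and 25.5 CPM, 0.94) were higher. So was Col11a1 (29.7 and 11.1 CPM, 1.42, 0.85 to 1.99), a gene of eccentric projection neurons, while Otof (-0.21, -0.93 to 0.46) and Casz1 (0.36, -0.53 to 1.17) of the same list had intervals that include 0. The cluster of 76 nuclei described next had high levels of striosome genes and Oprm1 at 75.4 CPM, and its part in the split was not tested. Kremen1 (-0.33, -1.41 to 0.63) and Kcnip1 (-0.38, -0.96 to 0.17) had intervals that include 0. Of the matrix genes, Id4 (10.3 and 22.8 CPM, -1.14), Rasgrp2 (55.4 and 79.4 CPM, -0.52), Calb1 (112 and 151 CPM, -0.44) and Epha4 (207 and 269 CPM, -0.38) were lower. Ebf1 and Zfp521 were lower in nuclei with Oprm1 (-0.83, -1.13 to -0.54 and -1.01, -1.43 to -0.62), and Tac1 and Pdyn higher (0.53 and 0.70). At start sites of the remaining striosome genes, Lypd1 at 0.79 (0.14 to 1.40), Sema5b at 0.69 (0.08 to 1.27) and Bach2 at 0.23 (0.02 to 0.44) had intervals above 0. The share of all gene starts with such intervals was not computed for this split. Kcnip1 was below 0 (-0.43, -0.75 to -0.12), and Tshz1 (-0.06), Kremen1 (0.02) and Rasgrp1 (0.38, -0.04 to 0.78) had intervals that include 0. The values of Bach2 and Kcnip1 are sums over 31 and 33 peaks, since their starts lie far apart. After thinning to 1000 UMIs, 3.10% of the Drd1 nuclei (2.07 to 4.45) kept an Oprm1 UMI, against 18.5% before, so a nucleus without one cannot be assigned to the matrix.

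Another pair of clusters had lower Ebf1. A cluster of 76 nuclei led by Tac2, Plxdc1 and Ankfn1 held Otof at 119 CPM (92.9 to 150) and Casz1 at 58.6 CPM (40.8 to 81.6), genes of eccentric projection neurons, a minor type of Drd1 neuron also called D1H. In the clusters led by Gm19410 and Wnt8b, Otof had 0 and 2.08 CPM. The cluster also held Foxp2 at 1885 CPM, Adarb2 at 1491 CPM, Tshz1 at 302 CPM, Sema5b at 176 CPM and Penk at 620 CPM (558 to 686), the highest level of Penk among the 11 clusters. Foxp1 was at 514 CPM, Ebf1 at 16.8 CPM and Isl1 at 3.35 CPM (0.406 to 12.1). Its start site ATAC had 59.7 FPM at Sema5b and no fragment at Isl1, where 0 allows up to 6.48 FPM.

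The second of the pair, of 38 nuclei led by Fign, held Otof at 103 CPM (67.3 to 151), Col11a1 at 123 CPM (83.4 to 174), the serotonin receptor Htr4 at 246 CPM (188 to 315) and Drd3 at 107 CPM (70.5 to 156). Unlike the first, it had Isl1 at 119 CPM (80.2 to 170). Ebf1 had no UMI (up to 14.6 CPM) and no start site fragment (up to 15.4 FPM), while Isl1 had 50.2 FPM (25.9 to 87.7) and Htr4 66.9 FPM (38.3 to 109) at their starts. Meis2 was at 329 CPM, against 1113 CPM in the cluster led by Gm19410. Drd1 RNA was required of every nucleus and is not compared between clusters. Drd1 start site ATAC, which the rule did not use, was at 15.8 FPM (7.23 to 30) in the first and 50.2 FPM (25.9 to 87.7) in the second. Both clusters also had more of the interneuron list, 1536 and 531 CPM, than the clusters led by Gm19410 and Wnt8b, with 154 and 91.7 CPM. Most of this was Adarb2, a gene of that list, at 1491 and 515 CPM, and the part of interneuron RNA in the pair was not tested.

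Further clusters carried markers of other cells or of RNA quality. A cluster of 36 nuclei led by Chrm2, Grik1 and Nxph2 held Sst at 2437 CPM, Npy at 991 CPM and Tacr1 at 219 CPM, with no Tac1 start site fragment. Its median depth was 13546 UMIs, and Scrublet marked 38.9% of it. This cluster held 506 of the 630 Npy UMIs. Clusters of 64, 22 and 9 nuclei had oligodendrocyte genes at 2229 CPM, astrocyte genes at 1616 CPM and microglia genes at 961 CPM, and 90.6%, 77.3% and 100% of their nuclei were marked. A cluster of 93 nuclei was led by mitochondrial genes. When the clusters with over 30% of nuclei marked were left out of both classes, 773 Drd1 and 497 Adora2a nuclei remained. The ratio of Npy then fell to 0.76 and that of Gfap was -0.76, and Zfp804b turned to -1.44. The part of mixed droplets in these values was not tested further.

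**Figure D4:**
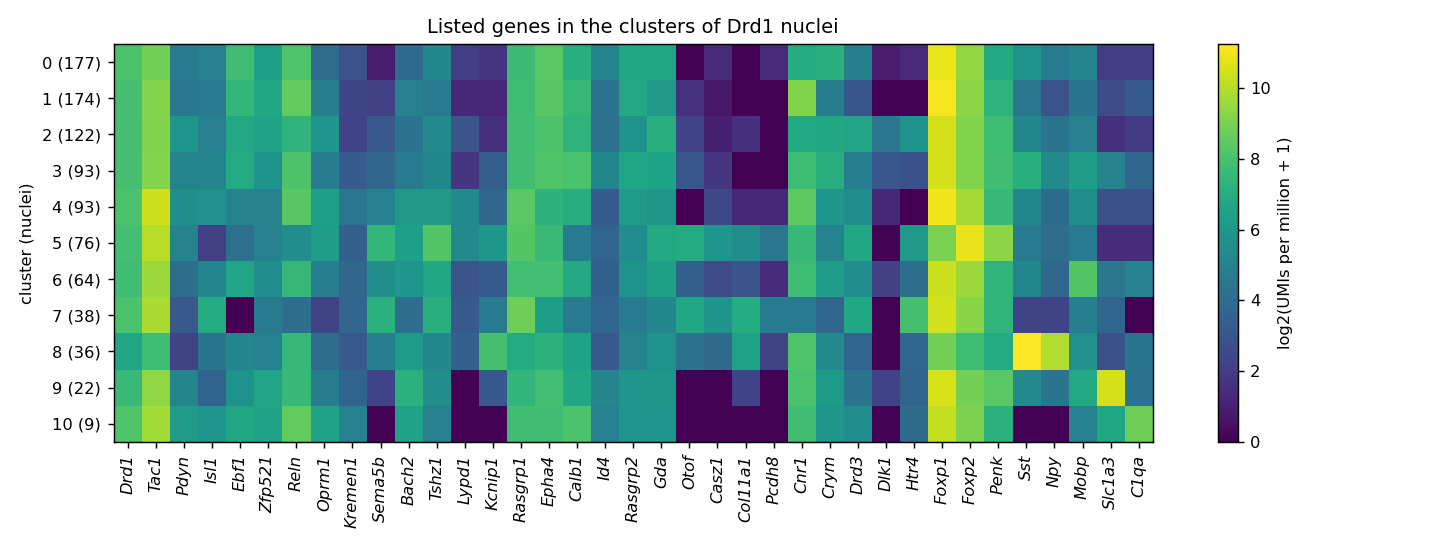
CPM of listed genes (columns) in the 11 clusters of Drd1 nuclei (lines of the heat map, numbered by size with their number of nuclei), coloured by log2 of CPM plus 1. Drd1 was required of every nucleus by the rule. Otof, Casz1 and Col11a1 stand out in the clusters of 76 and 38 nuclei, Lypd1 in the clusters led by Zp3r and Tac2, and Sst and Npy in the cluster of 36 nuclei.

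Counts of the electroporated genes were found in a minority of Drd1 nuclei. A GFP UMI was in 98 of 904 Drd1 nuclei (10.8%, 8.89 to 13.1), in 11.5% of the Adora2a nuclei, 6.67% of the Slc17a7 nuclei and 4.11% of the oligodendrocyte nuclei. After thinning, the shares in the same order were 2.99%, 2.96%, 1.17% and 2.69%, so Drd1 nuclei were close to oligodendrocyte nuclei at equal depth. Some oligodendrocyte nuclei also held 2 or more GFP UMIs (19 of 1266), and the part of free RNA in these shares was not tested. Piggybac transposase had 10 UMIs in Drd1 nuclei. The vector features for the H3.3 construct, the p53 guide, Cas9 and PQR had 0 UMIs, which allows up to 0.491 CPM at the upper end of the interval.

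Foxr2 was higher in nuclei with more GFP UMIs. The plasmids join GFP to FOXR2 or to Akaluc, so a rise of both with GFP was built into this split. Foxr2 RNA, in which the transgene and the gene of the mouse cannot be told apart, was at 1.35 CPM (0.619 to 2.57) in the 806 Drd1 nuclei with no GFP UMI, 12.5 CPM (5.01 to 25.7) in the 62 with 1 and 41.5 CPM (22.1 to 71.0) in the 36 with 2 or more. Akaluc was at 1.81, 17.8 and 163 CPM in these groups. The 13 Foxr2 UMIs of the last group came from 10 nuclei, and the highest GFP count in a nucleus was 20 UMIs. Adora2a nuclei gave 1.85, 18.3 and 33.2 CPM of Foxr2 in the same order, with intervals that overlap those of the Drd1 nuclei.

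**Figure D5:**
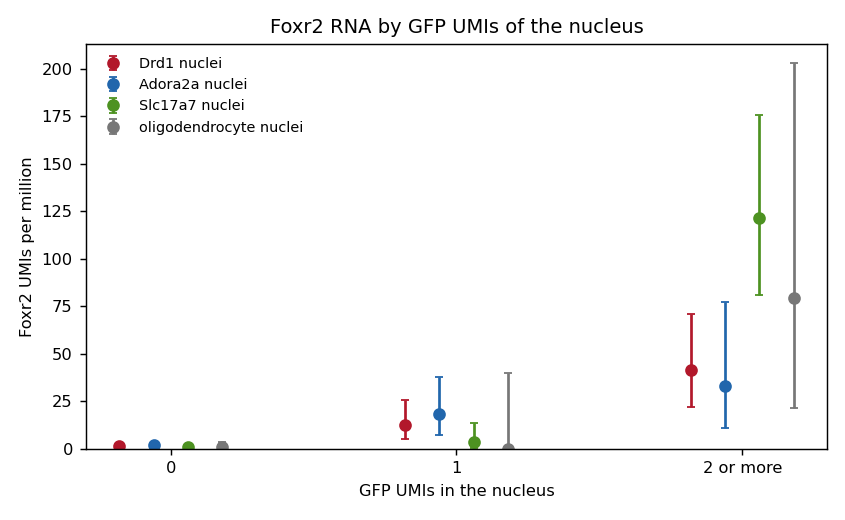
Foxr2 level in CPM by GFP UMIs per nucleus (0, 1, 2 or more) in Drd1, Adora2a, Slc17a7 and oligodendrocyte nuclei, with bars for exact 95% Poisson intervals. In Drd1 nuclei the level goes from 1.35 to 12.5 and 41.5 CPM.

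The 36 Drd1 nuclei with 2 or more GFP UMIs were compared with the 806 with none. Over 3999 genes with at least 50 CPM among the Drd1 nuclei, 40 (1.0%) were at least 2-fold higher and 72 (1.80%) at least 2-fold lower. Of the 5 direct pathway genes and 14 shared identity genes tested, none was 2-fold apart in either direction, with median log2 ratios of 0.29 and 0.00, against -0.01 over all genes tested. The other 6 direct pathway genes were below the minimum, among them Pdyn with 4 UMIs in the nuclei with GFP (12.8 and 31.8 CPM, -1.31, -3.20 to 0.06). Tac1 was at 649 and 669 CPM (-0.04, -0.25 to 0.16), Bcl11b at 294 and 302 CPM (-0.04, -0.36 to 0.26) and Ebf1 at 137 and 112 CPM (0.29, -0.19 to 0.73). Foxp1 was at 2042 and 1552 CPM (0.40, 0.28 to 0.51) and Htr2c at 134 and 238 CPM (-0.83, -1.30 to -0.38).

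Of the indirect pathway genes 2 were tested and 1 was 2-fold lower, Ptprm at 19.2 CPM in the nuclei with GFP and 71.6 CPM in those without (-1.90, -3.36 to -0.77), on 6 UMIs. Drd2, below the minimum, was at 54.3 and 11.1 CPM (2.29, 1.43 to 3.06), with its 17 UMIs in 3 nuclei. Of 22 tested dopamine signaling genes, 1 was at least 2-fold lower, Creb1 (22.4 and 69.2 CPM, -1.63, -2.95 to -0.58), on 7 UMIs, and none was at least 2-fold higher. Within 2-fold, 5 of these genes had intervals above 0, led by Ppp1ca (89.5 and 53.4 CPM, 0.74, 0.13 to 1.30) and Ppp1r1b (396 and 314 CPM, 0.34, 0.06 to 0.60), and Gnal lay below 0 (367 and 459 CPM, -0.32, -0.60 to -0.05). Over all 3999 genes tested, 436 had intervals above 0 and 359 below 0. Markers of other cells also differed between these groups. The oligodendrocyte gene Mobp was higher in the nuclei with GFP (144 and 54.8 CPM, 1.39), as was Slc1a3 of astrocytes (185 and 49.5 CPM, 1.90), while Sst (25.6 and 228 CPM, -3.16) and Npy (12.8 and 91.5 CPM, -2.84) were lower. Of the 36 nuclei, 5 lay in the cluster with oligodendrocyte genes, 3 in that with astrocyte genes and 0 in that with Sst and Npy. In the largest clusters, 11 lay among the 174 nuclei led by Wnt8b and 3 among the 177 led by Gm19410. The cluster of 122 nuclei led by Adam12, with more Pdyn and Drd3, held 0. The part of this uneven spread over clusters in the differences of the other genes was not tested.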

How the data were processed

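RNA and ATAC were read from 1 matrix per library, in which the authors deposited raw UMI counts per gene and transposase cut counts per peak, made with Cell Ranger ARC 2.0.0 on mm10 (both from the submitters' processing notes) with the vector sequences added. Peaks and barcodes had been called in each library. Of the nonzero peak counts 82.9% were even, so fragments were taken as the counts halved and rounded up per nucleus and peak. For each class, the counts of its nuclei were added up and divided by the class total. With 1 library per genotype no test across samples was run, and the exact Poisson, binomial and 2-count intervals at the 95% level cover counting error only.

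The nuclei and the gene lists were chosen with earlier results of these data known. Genes were named from 20 lists with 172 genes and, listed or not, as the 12 per direction with the largest ratio among those with at least 20 CPM, 25 UMIs and 10 nuclei. Peaks were named as the 8 per direction with the largest ratio among those with at least 50 fragments. Clusters came from Leiden clustering (scanpy 1.11.5, leidenalg 0.10.2) on 2000 variable genes, 30 principal components and 15 neighbours at resolution 0.8. Doublets were marked with Scrublet at an expected rate of 8% and kept. The calling of RNA ratios was tested on simulated data, and that of ATAC ratios was not. Positions are from GENCODE vM21 and sequences from GRCm38. Python 3.11.15, numpy 2.4.6 and scipy 1.17.1 were used. Other cut-offs, depths, doublet handling and scalings were tried. Oligodendrocyte nuclei were those with 2 or more UMIs of 1 marker gene and a neuronal share below that of the rule. Slc17a7 nuclei also had no Rgs9 UMI. Values of some listed genes are not reported here.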

Additional observations from a re-analysis of the deposited data

How the results depend on the processing

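Of 448 values recomputed under alternatives, 378 stayed close to the value reported, 69 moved and 1 changed sign. Of 337 values of single genes or peaks, 50 moved, and 7 had no value because a class was left without a count. With at least 2 UMIs of Drd1 or Adora2a, 503 and 253 nuclei remained, 203 and 84 genes were 2-fold higher in Drd1 and Adora2a nuclei, and 582 peaks were higher in Adora2a nuclei. With each nucleus thinned to 1000 UMIs there were 601 and 181 genes, GFP was at 43.1 CPM, Akaluc at 5.53 CPM and Foxr2 at 1.11 CPM, and 2.99% of the Drd1 nuclei held a GFP UMI. The thinned Akaluc and Foxr2 values rest on very few UMIs and do not show a drop in level. With no minimum but 3 UMIs there were 1742 and 931 genes. Peak counts as deposited gave 7411 and 2284 peaks, a minimum of 40 fragments 861 and 299, and a minimum of 5 FPM, chosen after seeing the data, 1116 in Drd1 nuclei. Without thinning, 18.5% of the Drd1 nuclei held an Oprm1 UMI. Leaving out clusters with over 30% of nuclei marked as doublets, also chosen after seeing the data, turned Zfp804b to -1.44. The counts of genes and peaks past 2-fold thus depend on the minimum and on depth. Counts of 1 library per genotype were analysed, so no comparison paired by library was run, and no result comes from a test.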
